A study of Mus musculus with 24 samples.

Results

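The epidermal growth factor (EGF) ligands and ERBB receptors are the subject here: the ligand genes Egf, Tgfa, Hbegf, Ereg, Btc and Nrg1, and the receptor genes Egfr, Erbb2, Erbb3 and Erbb4. They were chosen by name, as every probe that is not a control and carries one of the 10 symbols, which gave 13 of 55681 probes and 10 of 34797 gene names. Egfr had 3 probes, Erbb4 had 2 and each other gene had 1. Mammary gland RNA of 24 female mice was measured, each mouse on its own one-colour array, in 8 groups of 3. BALB/c mice received 10 cGy of X-rays to the whole body (low-dose ionizing radiation, LDIR) or a sham exposure when they were 8 to 9 weeks old, and glands were collected 2, 4 or 8 weeks later. SPRET/EiJ mice, an inbred strain of another mouse species, received the same exposure or sham and were collected at 4 weeks only. Both are inbred strains without a transgene, and the study compared them because BALB/c is the more sensitive to radiation. The stage of the estrous cycle at collection is not in the labels. The RNA came from whole tissue, so fewer cells of a type and less RNA per cell cannot be told apart in any value below.

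The ligands are made as membrane-bound precursors and are released by proteases. Egf, Tgfa and amphiregulin (Areg) bind Egfr, betacellulin (Btc), heparin-binding EGF (Hbegf) and epiregulin (Ereg) bind both Egfr and Erbb4, and neuregulin 1 (Nrg1) binds Erbb3 and Erbb4. The receptors work as pairs: Erbb2 has no known ligand of its own and serves as the favoured partner, while Erbb3 has little kinase activity and signals through its partner. In the mammary gland, Egfr in the stroma is needed for ductal growth at puberty, and Erbb4 for milk production in the epithelium. ERBB2 is amplified in a share of human breast cancers.

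Each probe is a 60-base oligonucleotide, and the middle 30 bases (bases 16 to 45) of most probes with a strain or time difference are printed to show what was hybridised. The Hbegf probe is not printed here. A SPRET/EiJ transcript that differs from the reference under a probe could bind it less well, and this cannot be told apart from a lower transcript level. No base is capitalised. Coordinates are those of the whole probe in mouse build mm9, as the array files give them. Egfr probe 1 (chr11:16813815-16813874, plus strand) is assigned to another Egfr transcript variant than probes 2 (chr11:16783556-16783615) and 3 (chr11:16787172-16787231). Erbb2 lies at chr11:98298103-98298162 (plus), Erbb3 at chr10:128006424-128006483 (minus), Egf at chr3:129380826-129380885 (minus), Btc at chr5:91786948-91787007 (minus), Nrg1 at chr8:32928500-32928559 (minus) and Tgfa at chr6:86224838-86224897 (plus).
Egfr probe 1: aactgtagcaatgaaaccctagtatttttg
Egfr probe 2: atgccaataatgtctgccacctatgccacg
Egfr probe 3: gggtacgttcaatggcagtggatcttaaag
Erbb2: gtgccctgaggaacctcgctcgatgcttca
Erbb3: tggcatagcaggcttttccctaaggctaac
Egf: tacatagaagtcttagctcactctcaggaa
Btc: ttactttacaagagagattccatagattca
Nrg1: aggctgtctagtgtaatcgctaaccaagac
Tgfa: ccaaaccatgagttagtttgtcatgtgccc
The G and C content of the whole probe ran from 35.0% for Btc and for Egfr probe 1 to 55.0% for Erbb2.

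Levels are log2 intensities relative to each array's 75th percentile, so that a level of 0 is the 75th percentile, and a level of 1 probe says nothing against that of another. SPRET/EiJ LDIR replicate C had 57.1% of its probes well above background and the other 23 arrays had 64.7% to 72.6%. The arrays lay on 3 slides of 8. Slide 1 held all BALB/c 2-week arrays and 4-week sham replicates A and B, slide 2 held 4-week sham replicate C, the 4-week LDIR arrays, the 8-week sham arrays and 8-week LDIR replicate A, and slide 3 held the remaining 2 BALB/c LDIR arrays of 8 weeks and all SPRET/EiJ arrays. The 8 luminal, 6 basal and 5 adipocyte marker genes checked were above background on all 24 arrays, as were those of fibroblasts and endothelium. Muscle markers varied most, from a linear sum of 0.384 to 674 over the arrays.

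Of the 13 probes, 8 were above background on all 24 arrays. Those for Erbb3 and Erbb4 (probe 1) were so on 22, Tgfa on 19, Ereg on 5, and Erbb4 probe 2 on none. Egf, Tgfa, Erbb2 and Egfr probe 1 are printed as 10 spots per array, with a median spot-to-spot SD of 0.13 for Egf, 0.34 for Tgfa, 0.06 for Erbb2 and 0.05 for Egfr probe 1.

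**Figure D1:**
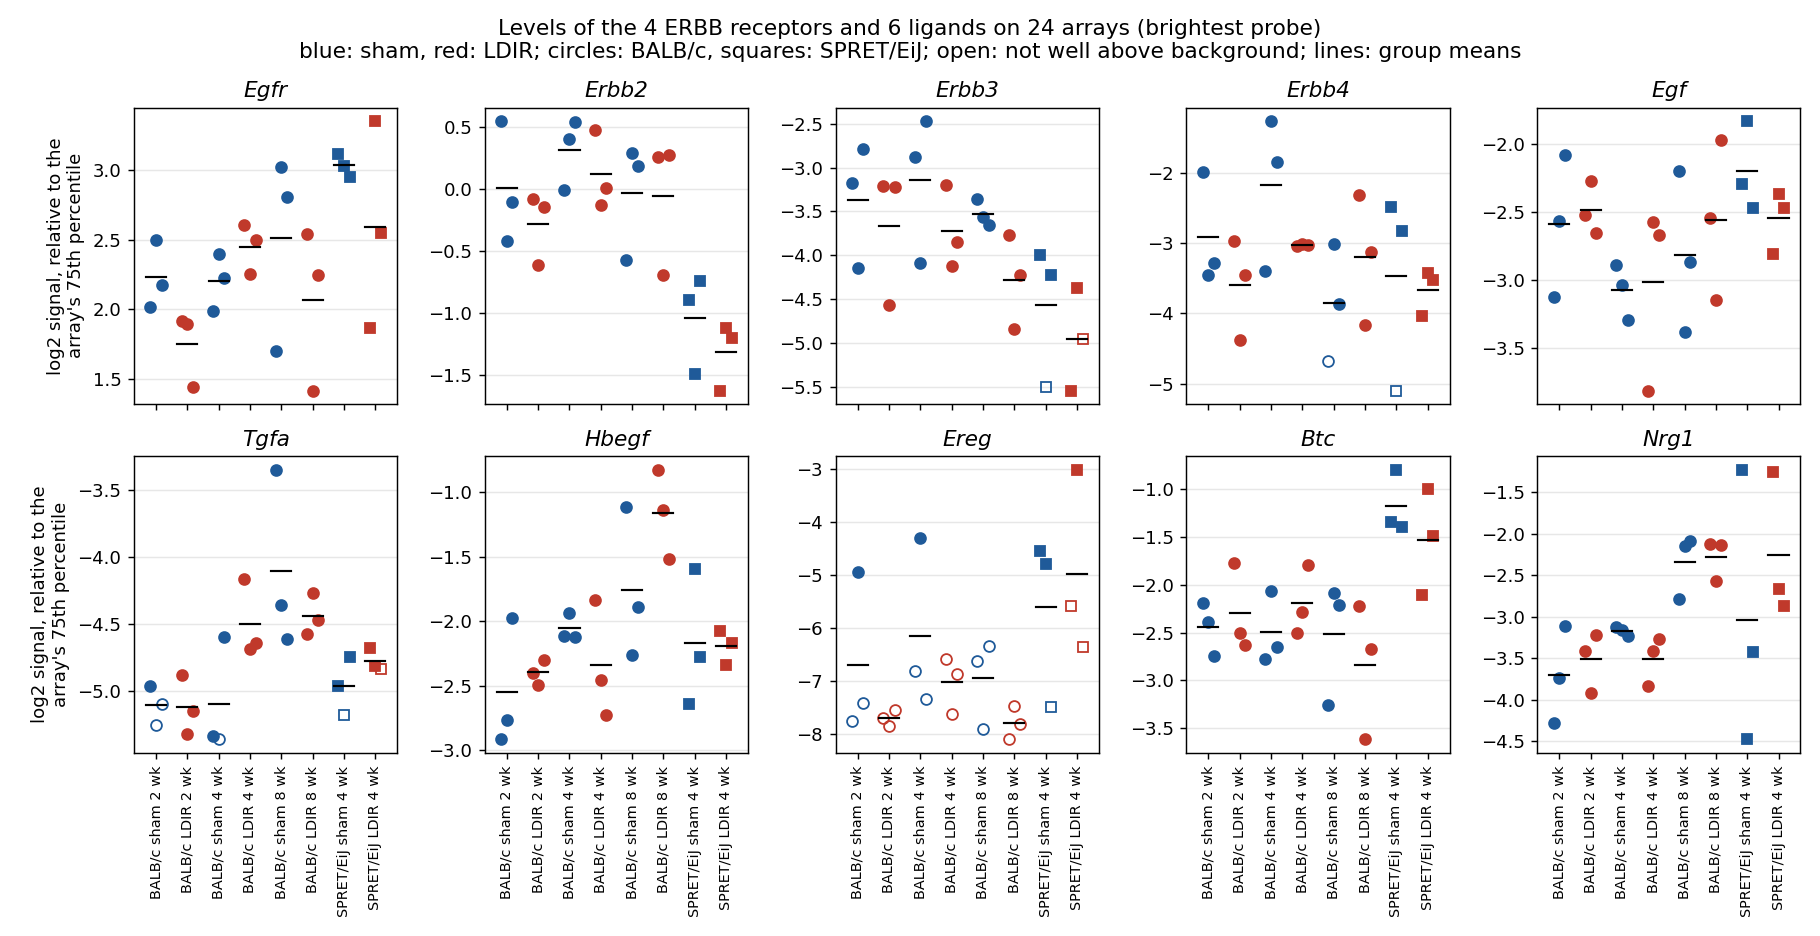
Log2 level relative to the array's 75th percentile (vertical axis) for the brightest probe of each of the 10 genes, by group (horizontal axis), with 1 point per mouse, blue for sham and red for LDIR, circles for BALB/c and squares for SPRET/EiJ, open symbols where the probe was not well above background and lines at group means. Erbb2 is lower in all 6 SPRET/EiJ mice (-1.63 to -0.75) than in any of the 18 BALB/c mice (-0.70 to 0.55).

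The receptors differed in how their group means ordered. Erbb2 means ran from 0.31 in BALB/c sham at 4 weeks down to -0.28 in BALB/c LDIR at 2 weeks, with steps smaller than the pooled SD of 0.40 throughout. The next step, of 0.76 to SPRET/EiJ sham (-1.05), was 1.92 times that SD, and SPRET/EiJ LDIR was last at -1.32. Erbb3 had the same 2 groups last (-4.57 and -4.96), but no neighbouring groups were farther apart than the pooled SD of 0.65. Egfr probe 1 ran from 3.03 in SPRET/EiJ sham to 1.75 in BALB/c LDIR at 2 weeks, and Erbb4 probe 1 from -2.17 in BALB/c sham at 4 weeks to -3.85 in BALB/c sham at 8 weeks, each without a step beyond the pooled SD (0.45 and 0.87). Egfr probes 2 and 3 were also highest in SPRET/EiJ sham (0.20 and -0.085). Their step from there to SPRET/EiJ LDIR was 1.15 and 1.02 times the pooled SD. Among ligands, Btc was highest in SPRET/EiJ sham (-1.18) and SPRET/EiJ LDIR (-1.54), and the step from there to the BALB/c groups (-2.19 and lower) was 1.35 times the pooled SD of 0.49.

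The first question was whether the strains differ. In glands at 4 weeks, with sham and LDIR mice pooled as 6 BALB/c against 6 SPRET/EiJ, Erbb2 and Erbb3 were higher in BALB/c (2.63-fold and 2.51-fold), and Btc and Egf were lower (1.98-fold and 1.59-fold). This comparison was added after the data were seen, with treatment as a factor. In limma, with p adjusted over all probes by Benjamini-Hochberg, 4 of 13 member probes had an adjusted p under 0.05, where 29.2% of all probes did. With the threshold that the study's methods set for strains (unadjusted p under 0.001 and over 1.5-fold), 1 of 13 passed, against 16.6% of all probes. The share of members that differed was thus near the background. The median difference, BALB/c minus SPRET/EiJ, was -0.42 over the 13 probes and -0.07 over all.

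Erbb2, the ligandless partner receptor, was at -0.011, 0.40 and 0.54 in BALB/c sham and at 0.47, -0.13 and 0.006 in BALB/c LDIR. In SPRET/EiJ it was at -0.90, -1.49 and -0.75 in sham and at -1.63, -1.12 and -1.21 in LDIR. The strains did not overlap. The difference was 1.40 (SE 0.19, 95% interval 0.99 to 1.80, limma adjusted p = 0.00011, 6 against 6 mice), and leaving out any 1 array gave 1.303 to 1.474. It was 1.36 (SE 0.27, adjusted p = 0.017) among sham mice and 1.44 (SE 0.27, adjusted p = 0.0202) among LDIR mice, which are different animals. Neither passed the study's threshold for strains.

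Erbb3, a neuregulin receptor, was at -2.88, -4.09 and -2.47 in BALB/c sham and -3.20, -4.12 and -3.85 in BALB/c LDIR. It was at -3.99, -5.50 and -4.22 in SPRET/EiJ sham and -5.54, -4.38 and -4.95 in SPRET/EiJ LDIR, where 4 of the 6 SPRET/EiJ arrays were above background. The strains overlapped narrowly, since replicate B of both BALB/c groups lay below the highest SPRET/EiJ mouse. The difference over both treatments was 1.33 (SE 0.35, limma adjusted p = 0.0115), and with another background correction (normexp) it was 0.38 (adjusted p = 0.052). Neither treatment alone passed, with 1.43 (SE 0.56, adjusted p = 0.135) among sham and 1.24 (SE 0.39, adjusted p = 0.0993) among LDIR mice, although the LDIR mice of the strains did not overlap. Erbb4 probe 1 stood 0.97 higher in BALB/c (SE 0.45, adjusted p = 0.137) and did not pass.

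Btc, a ligand of Egfr and Erbb4, was at -2.78, -2.07 and -2.65 in BALB/c sham, and at -2.51, -2.28 and -1.79 in BALB/c LDIR. In SPRET/EiJ it was at -1.34, -0.80 and -1.39 in sham and -2.11, -1 and -1.49 in LDIR. All SPRET/EiJ sham mice lay above all BALB/c mice, while SPRET/EiJ LDIR replicate A lay among them. The difference was -0.99 (SE 0.24, limma adjusted p = 0.00851) over both treatments, -1.32 (SE 0.27, adjusted p = 0.0201) among sham mice and -0.66 (SE 0.36, adjusted p = 0.315) among LDIR mice.

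Egf was at -2.89, -3.03 and -3.29 in BALB/c sham and at -3.81, -2.57 and -2.67 in BALB/c LDIR. It was at -2.29, -1.83 and -2.47 in SPRET/EiJ sham, and at -2.81, -2.36 and -2.46 in SPRET/EiJ LDIR. The sham groups did not overlap and the LDIR groups did. The difference over both treatments was -0.67 (SE 0.23, limma adjusted p = 0.0443), but it missed the threshold without any 1 of 9 of the 12 arrays: BALB/c sham A, B or C, BALB/c LDIR A, SPRET/EiJ sham A, B or C, and SPRET/EiJ LDIR B or C (-0.71 to -0.52, adjusted p up to 0.099).

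Egfr, the receptor of most of these ligands, differed by -0.49, -0.42 and -0.57 at probes 1, 2 and 3 over both treatments, and none passed (limma adjusted p = 0.156, 0.236 and 0.131). At probe 1 it was at 1.98, 2.39 and 2.22 in BALB/c sham and 3.12, 3.03 and 2.95 in SPRET/EiJ sham, which did not overlap, and at 2.60, 2.25 and 2.50 in BALB/c LDIR against 1.86, 3.35 and 2.55 in SPRET/EiJ LDIR, which did. One array set the result: without SPRET/EiJ LDIR replicate A, the same differences were -0.69, -0.62 and -0.80 (adjusted p = 0.00859, 0.0197 and 0.00427). Without it 7 of 13 probes, 3 of them for Egfr, had an adjusted p under 0.05. The share of all probes in that fit is not given here, and it was 29.2% with no array left out. SPRET/EiJ LDIR replicate A was the lowest SPRET/EiJ mouse for all 3 Egfr probes, and also for Btc, Egf (-2.81), Erbb2 (-1.63) and Erbb3 (-5.54). It was lowest for Erbb4 probe 2 as well, which was above background on no array. Its low level added to the strain difference for Erbb2 and Erbb3 and reduced it for Egfr, Btc and Egf. The remaining ligands did not pass: Hbegf differed by -0.015 (95% interval -0.46 to 0.43), Tgfa by 0.07 (-0.33 to 0.47), Nrg1 by -0.69 (-1.75 to 0.37) and Ereg by -1.28 (-2.88 to 0.31).

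Among sham mice alone, 0 of 13 probes passed the study's threshold, where 8.89% of all probes did, and 4 of 13 had an adjusted p under 0.05, where 18.8% did, from limma on 6 arrays. These 4 were Erbb2, Btc, Egfr probe 1 (-0.83, SE 0.18, adjusted p = 0.0222) and Egf (-0.87, SE 0.23, adjusted p = 0.045). An unadjusted p under 0.05 was found for 7 of 13, and for 17848 of all 55681 probes. Egfr probe 3 (-0.97, adjusted p = 0.0502) was called without SPRET/EiJ replicate A (-1.22, adjusted p = 0.027). Each of the 4 was lost without 1 array. Erbb2 was lost without BALB/c replicate B (1.31, adjusted p = 0.0538) or C (1.24, adjusted p = 0.0537), and Btc without BALB/c replicate A (-1.18), C (-1.24) or SPRET/EiJ replicate B (-1.13; adjusted p = 0.053 to 0.0679). Egfr probe 1 was lost without BALB/c replicate A or C or any SPRET/EiJ array (adjusted p = 0.055 to 0.0806), and Egf without any of the 6 (0.0549 to 0.115). Among LDIR mice, 0 of 13 passed the study's threshold (5.67% of all probes), and 1 of 13, Erbb2, had an adjusted p under 0.05 (11.1% of all probes). It was lost without BALB/c LDIR replicate A, B or C (adjusted p = 0.0814, 0.0643 and 0.0782). An unadjusted p under 0.05 was found for 5 of 13, and for 13972 of all 55680 probes. Nrg1 did not overlap between the LDIR groups (-1.25, SE 0.46, adjusted p = 0.148), nor did Erbb4 probe 1 (0.64, SE 0.25, adjusted p = 0.166) or Ereg (adjusted p = 0.193). Ereg was above background in 0 of 3 BALB/c and 1 of 3 SPRET/EiJ mice, so its difference is neither a fold nor a bound.

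Cell type markers differed with the strain as well. The summed linear level of the 8 luminal markers (Krt8, Krt18, Krt19, Epcam, Cdh1, Elf5, Prlr and Esr1) was 166 to 404 in BALB/c at 4 weeks and 33.6 to 147 in SPRET/EiJ, and 5 of 8 passed the study's threshold as higher in BALB/c, with a median difference of 1.78. The sum of the 4 Schwann cell markers was 9.15 to 13.3 in BALB/c and 19.6 to 23.6 in SPRET/EiJ, but only Mbp of the 4 passed, as lower in BALB/c (-1.37), and their median difference was 0.10. Of the basal markers 2 of 6 passed as higher in BALB/c (median 0.46), as did 2 of 5 salivary gland markers (median 1.52), whose sum was 0.155 to 0.712 in BALB/c and 0.0788 to 0.19 in SPRET/EiJ. The salivary gland genes Klk1 and Klk1b26 were each above background on 0 of 3 SPRET/EiJ sham and 1 of 3 SPRET/EiJ LDIR arrays. The part of these lists in the differences of Erbb2, Erbb3, Btc and Egf was not tested. All SPRET/EiJ arrays lay on slide 3 with no BALB/c array of 4 weeks, so strain and slide cannot be told apart by comparing these arrays, sham or LDIR. A fit of all 24 arrays with slide as a block gave 1.05 for Erbb2 (SE 0.57, limma adjusted p = 0.392), 0.91 for Erbb3 (SE 0.85, 0.712), -1.98 for Btc (SE 0.66, 0.106) and -0.80 for Egf (SE 0.67, 0.653). It ties slides 1 and 2 only through BALB/c 4-week sham mice, and slides 2 and 3 only through BALB/c 8-week LDIR mice. Each tie compares 1 mouse with 2, so these values do not show that the strains were equal.

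**Figure D2:**
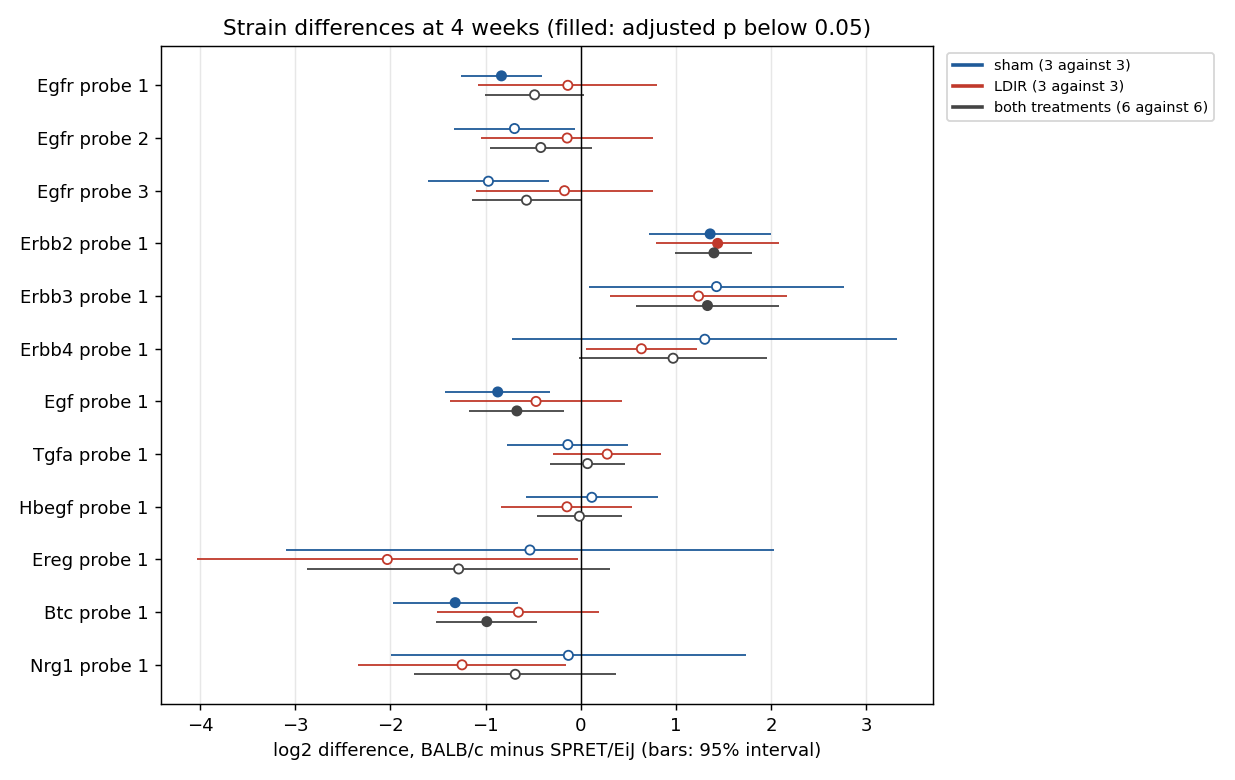
Log2 difference at 4 weeks, BALB/c minus SPRET/EiJ (horizontal axis; bars are 95% intervals), at 12 of the 13 member probes (vertical axis; Erbb4 probe 2, above background on no array, is left out), for sham mice, LDIR mice and both together, filled where the adjusted p was below 0.05. Erbb2 is filled in all 3 comparisons (1.36, 1.44 and 1.40), while Btc and Egf are filled for sham mice and for both together.

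The second question was whether LDIR changed these genes. With 3 against 3 mice and no replicate block, no member probe passed the methods' threshold at any single time in either strain, which does not show that the levels were equal. At 2 weeks in BALB/c 0 of 13 probes passed that threshold (unadjusted p under 0.05 and over 1.5-fold), against 3.05% of all probes. At 4 weeks it was 0 of 13 against 4.83%, at 8 weeks 0 of 13 against 1.92%, and in SPRET/EiJ at 4 weeks 0 of 13 against 2.21%. In limma none of the 13 had an adjusted p under 0.05 in these 4 comparisons, and neither did any other probe (0% of all probes at each BALB/c time, and 0% for SPRET/EiJ). The number of members with an unadjusted p under 0.05 was 0 in each, whereas 2799, 3440, 1098 and 1238 of all probes had one. Median differences, LDIR minus sham in the same order, were -0.012, 0.05, -0.09 and -0.27 over the 13 probes, and -0.02, 0.02, -0.14 and 0.03 over all.

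The Erbb3 difference was below 0 in all 4 comparisons, as was that of Erbb2. For Erbb3 the BALB/c differences were -0.30, -0.58 and -0.75 in order of time, and the SPRET/EiJ difference was -0.39. At 8 weeks the sham mice were at -3.36, -3.57 and -3.66 and the LDIR mice at -3.77, -4.84 and -4.22, which did not overlap. LDIR replicate A, the 1 LDIR mouse on the slide of the sham mice, was nearest to them. The difference had a 95% interval of -1.56 to 0.065 (limma adjusted p = 1), and without LDIR replicate A it was -1.001 and passed the methods' threshold. At 4 weeks the sham mice (-2.88, -4.09 and -2.47) and LDIR mice (-3.20, -4.12 and -3.85) overlapped, and the difference passed only without sham replicate B (-1.05). Over the 3 times in BALB/c, 9 against 9 mice, the Erbb3 difference was -0.54 (95% interval -1.10 to 0.018, adjusted p = 0.985), and it passed without any 1 of 6 arrays: sham B of 2 weeks, sham B of 4 weeks, LDIR A and C of 2 weeks, LDIR A of 4 weeks and LDIR A of 8 weeks (-0.67 to -0.60).

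Egfr probe 1 did not overlap at 2 weeks, at 2.02, 2.50 and 2.17 in sham and 1.92, 1.90 and 1.44 in LDIR mice. The difference was -0.48 (SE 0.21, 95% interval -0.99 to 0.028, limma adjusted p = 0.869), and it passed the methods' threshold without sham replicate A, at -0.585. The other Egfr probes did not show it, at 0.14 and -0.07. At 4 weeks the difference at probe 1 was 0.25, and at 8 weeks it was -0.44 with an interval of -1.62 to 0.73. In SPRET/EiJ all 3 Egfr probes stood lower after LDIR, by -0.45, -0.48 and -0.51, and SPRET/EiJ LDIR replicate A was the lowest mouse at each. Probe 1 passed there without LDIR replicate B (-0.83).

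Erbb2 differed in BALB/c by -0.29 at 2 weeks, -0.19 at 4 weeks and -0.025 at 8 weeks and by -0.27 in SPRET/EiJ, with the narrowest interval, -0.77 to 0.38, at 4 weeks. Erbb4 probe 1 had differences of both signs, -0.70, -0.86 and 0.65 at the same BALB/c times and -0.19 in SPRET/EiJ. It passed the methods' threshold at 4 weeks without sham replicate A (-1.47) and in SPRET/EiJ without sham replicate B (-1.01). At 2 weeks its levels were -1.98, -3.45 and -3.28 in sham and -2.96, -4.38 and -3.45 in LDIR mice, so that each LDIR mouse was below the sham mouse of the same letter. Whether letters are pairs at this time is not settled, and the main fit did not pair them. With the letter as a replicate block the Erbb4 difference was -0.70 with SE 0.22 (limma adjusted p = 0.731). It passed the methods' threshold there as 1 of 13 probes, against 3.73% of all probes in that fit.

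Among ligands, Tgfa stood 0.60 higher after LDIR at 4 weeks (SE 0.27, limma adjusted p = 0.775). It was at -5.33, -5.36 and -4.60 in sham mice and -4.17, -4.69 and -4.64 in LDIR mice. The sham mice at -5.33 and -5.36 lay on slide 1, and the other 4 lay on slide 2. With slide as a block, which compares the LDIR mice with sham replicate C alone, the difference was 0.10 (adjusted p = 1), and without that mouse it was 0.85 and passed the methods' threshold. Nrg1 did not overlap at 4 weeks, at -3.12, -3.16 and -3.23 in sham and -3.83, -3.42 and -3.27 in LDIR mice (-0.33, 95% interval -0.80 to 0.13, adjusted p = 0.775). Hbegf at 8 weeks was at -1.12, -2.26 and -1.89 in sham and -0.83, -1.14 and -1.52 in LDIR mice, a difference of 0.59 (SE 0.38, adjusted p = 1) that passed without sham replicate A (0.92). Btc and Egf differed by -0.36 to 0.31 and by -0.35 to 0.26 over the 4 comparisons. The Nrg1 difference in SPRET/EiJ was 0.78 (SE 0.85) and passed without sham replicate A (1.69).

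Ereg passed the methods' threshold in the fit of 9 LDIR against 9 sham BALB/c mice, with time as a factor. It was above background in 2 of the 9 sham mice, at -4.94 in sham replicate B of 2 weeks and -4.29 in sham replicate B of 4 weeks, and in none of the LDIR mice, which ranged from -8.09 to -6.57. The other 16 arrays give only a bound, so the fitted difference of -0.90 (SE 0.41, limma adjusted p = 0.985) is neither a fold nor a bound. It was 1 of 13 probes against 1.16% of all probes, with 0% of all probes at an adjusted p under 0.05 and 1 member and 1857 of all probes at an unadjusted p under 0.05. Without either of those 2 sham mice it was -0.64, and it no longer passed without any 1 of 11 of the 18 arrays: those 2, sham A and C of 8 weeks, and LDIR A, B and C of 2 weeks, B and C of 4 weeks and A and C of 8 weeks (-0.93 to -0.64). No other member passed in this fit with all arrays. In SPRET/EiJ, Ereg was above background in 2 of 3 sham and 1 of 3 LDIR mice.

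Whether LDIR acted differently in the strains was tested at 4 weeks as an interaction, the BALB/c difference minus the SPRET/EiJ difference, on 12 arrays. None of 13 member probes passed the methods' threshold, against 3.59% of all probes, and none had a limma adjusted p under 0.05, as for 0% of all probes; 0 members and 2003 of all probes had an unadjusted p under 0.05. The Egfr probes gave 0.70, 0.55 and 0.80 (SE 0.45, 0.48 and 0.50, adjusted p = 0.955 each), and Nrg1 gave -1.12 (SE 0.96). Leaving out 1 array made some of these values larger: Egfr probe 1 was 1.08 without SPRET/EiJ LDIR replicate B and Nrg1 -2.03 without SPRET/EiJ sham replicate A, and each then passed the methods' threshold. Nrg1 was widely spread in SPRET/EiJ, at -1.23, -4.48 and -3.42 in sham and -1.25, -2.66 and -2.87 in LDIR mice.

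**Figure D3:**
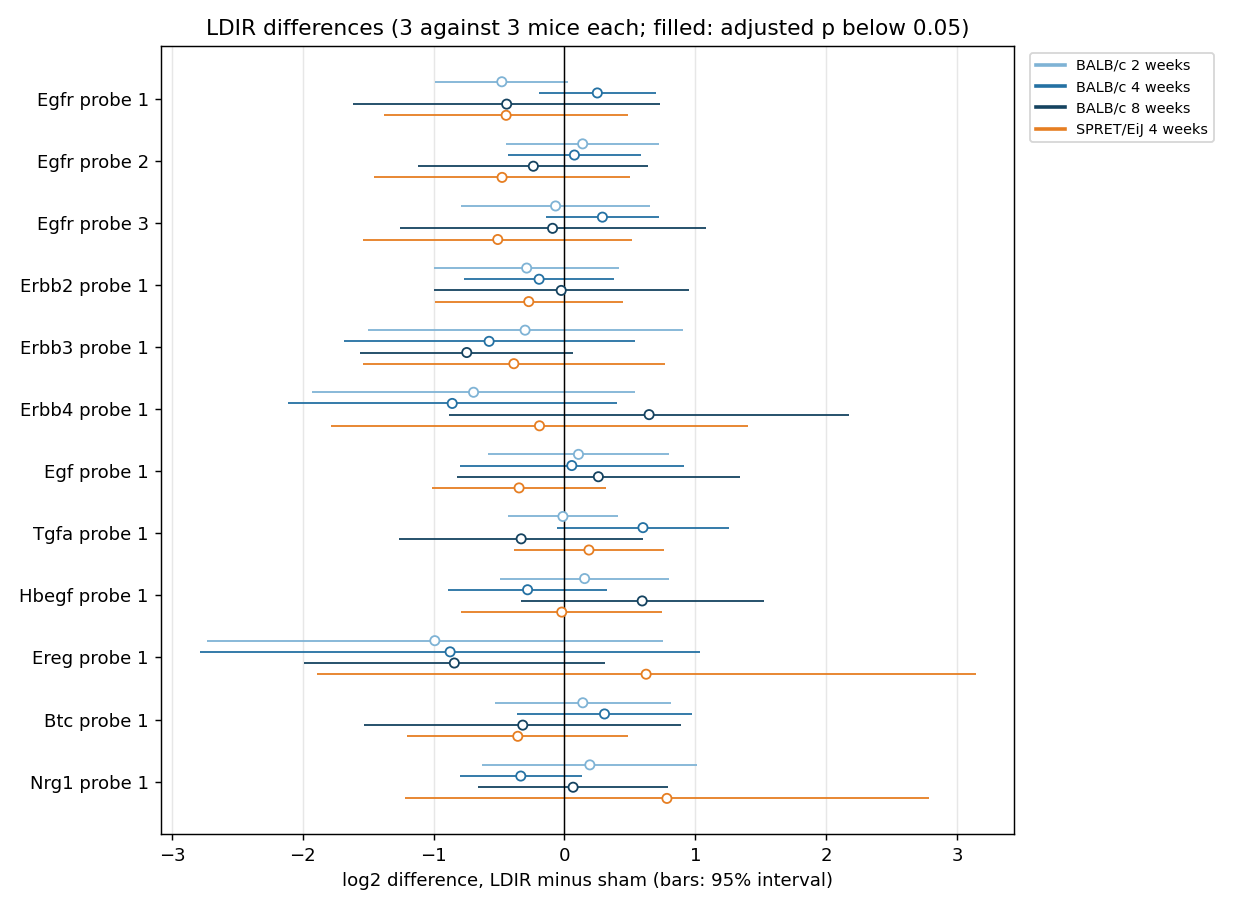
Log2 difference, LDIR minus sham (horizontal axis; bars are 95% intervals from limma), at 12 of the 13 member probes (vertical axis; Erbb4 probe 2 is left out) for the 3 BALB/c times and SPRET/EiJ, 3 against 3 mice each. Every interval includes 0, and no point is filled because no adjusted p was below 0.05; the 4 Erbb3 points lie left of 0 (-0.75 to -0.30).

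The third question, added after the data were seen, was whether the BALB/c gland changed between 2 and 8 weeks after exposure, with LDIR and sham mice pooled (6 against 6) and treatment as a factor. Of the ligands, 3 rose: Nrg1 by 2.47-fold, Hbegf by 2.02-fold and Tgfa by 1.79-fold. No receptor passed. These 3 of 13 probes passed the methods' LDIR threshold, against 21.2% of all probes, and the same 3 had a limma adjusted p under 0.05, against 17.9% of all probes, so the share among members was near the background. The median difference was 0.006 over members and -0.01 over all probes.

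Nrg1, the Erbb3 and Erbb4 ligand, was at -4.28, -3.74 and -3.11 in sham and -3.41, -3.91 and -3.21 in LDIR mice at 2 weeks. At 8 weeks it was at -2.79, -2.15 and -2.08 in sham and -2.12, -2.56 and -2.14 in LDIR mice. The times did not overlap, and the difference was 1.303 (SE 0.22, limma adjusted p = 0.00325; 0.00217 to 0.0103 with any 1 array left out). At 4 weeks Nrg1 lay at -3.83 to -3.12, within the range of 2 weeks.

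Hbegf was at -2.92, -2.76 and -1.98 in sham and -2.40, -2.49 and -2.30 in LDIR mice at 2 weeks, and at -1.12, -2.26 and -1.89 in sham and -0.83, -1.14 and -1.52 in LDIR mice at 8 weeks. The ranges overlapped through sham mice only. The difference was 1.02 (SE 0.24, limma adjusted p = 0.0144). Tgfa ranged from -5.32 to -4.88 at 2 weeks, where 4 of 6 arrays were above background, and from -4.61 to -3.35 at 8 weeks, where all 6 were. These did not overlap, and the difference was 0.84 (SE 0.21, adjusted p = 0.0184). With normexp background correction the Tgfa difference was -0.05 (adjusted p = 0.752), that of Nrg1 was 0.43 (0.0163), under 1.5-fold and so no longer past the threshold, and that of Hbegf was 0.62 (0.021).

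All 2-week arrays lay on slide 1, and all 8-week arrays on slides 2 and 3, so time and slide cannot be told apart by comparing these arrays. The 4-week sham mice lay on slides 1 and 2, and their Tgfa levels were -5.33 and -5.36 on slide 1 and -4.60 on slide 2, which was not tested with 2 mice against 1. For Nrg1 the same mice were at -3.12 and -3.16 on slide 1 and -3.23 on slide 2, and for Hbegf at -2.11 and -1.94 against -2.12. In the fit of 24 arrays with slide as a block, the differences were 0.021 for Tgfa, 1.47 for Nrg1 and 1.28 for Hbegf, with limma adjusted p of 1, 0.812 and 0.559. The ties between slides in that fit compare 1 mouse with 2, so these values do not show that the times were equal. Marker sums moved with time as well: white adipocyte markers were at 1420 to 2140 at 2 weeks and 583 to 1310 at 8 weeks, basal markers at 35.8 to 56.8 and 38.4 to 183, Schwann cell markers at 9.15 to 12.8 and 14.5 to 22.9, and macrophage markers at 25.7 to 50.8 and 39.1 to 71.7. Lymphocyte markers were at 6.8 to 9.27 at 2 weeks and 5.77 to 94.8 at 8 weeks, where 1 sham (75.3) and 1 LDIR mouse (94.8) had the highest sums. Salivary gland markers were at 0.166 to 0.357 and 0.212 to 6.48, with highest sums of 5.91 in sham and 6.48 in LDIR mice at 8 weeks. Their part in the ligand differences was not tested. The receptors differed from 2 to 8 weeks by 0.30 at Egfr probe 1 (95% interval -0.27 to 0.87), 0.09 for Erbb2 (-0.45 to 0.64), -0.38 for Erbb3 (-1.07 to 0.30) and -0.27 for Erbb4 probe 1 (-1.29 to 0.74).

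**Figure D4:**
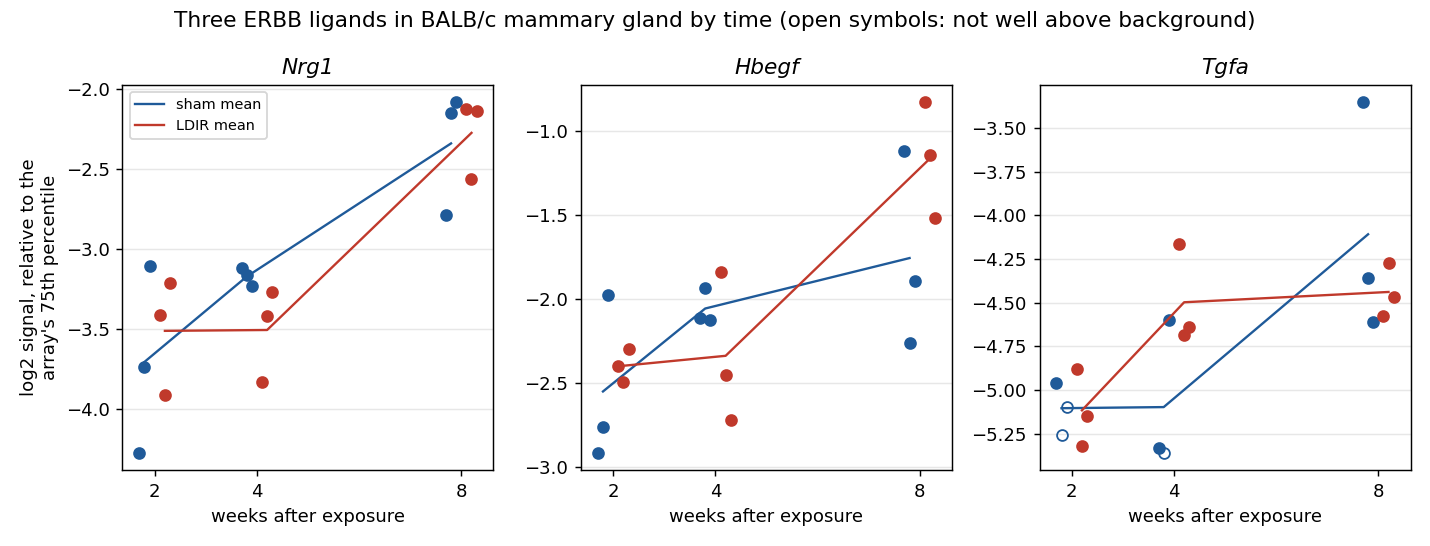
Log2 level of the Nrg1, Hbegf and Tgfa probes in BALB/c (vertical axis) by weeks since exposure (horizontal axis, linear), with 1 point per mouse, sham in blue and LDIR in red, open symbols where the probe was not well above background and lines through the group means. Nrg1 lies between -4.28 and -3.11 at 2 weeks and between -2.79 and -2.08 at 8 weeks in all mice.

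Other genes of the pathway were counted in 6 lists of 65 genes, of which 64 were measured. After LDIR, 0 of 64 passed the methods' threshold at 2 and at 4 weeks in BALB/c, where 3.05% and 4.83% of all probes did. At 8 weeks 2 of 64 passed as lower, both ligands of Egfr, against 1.92% of all probes. Areg, the amphiregulin gene, was at 1.02, 2.59 and 2.76 in sham and -0.34, 0.15 and -0.13 in LDIR mice, which did not overlap. The difference was -2.23 (SE 0.51, limma adjusted p = 1), and it passed the methods' threshold under each alternative run, at -2.78 to -1.91. Epgn, the epigen gene, differed by -0.93 (SE 0.38, adjusted p = 1) and no longer passed without sham replicate B or C or LDIR replicate B or C. It also did not pass with normexp (-0.37), quantile normalization (-0.46), slide as a block (-0.43), the methods' t-test or the replicate block. Over the 3 times together, Areg differed by -1.13 (SE 0.44, adjusted p = 0.985), and 1 of 64 passed, against 1.16% of all probes. Areg differed by -0.21 at 2 weeks and by -0.96 at 4 weeks, and by 0.60 in SPRET/EiJ. In SPRET/EiJ 1 of 64 passed, against 2.21% of all probes, the receptor ubiquitin ligase Cbl at 0.81 (adjusted p = 0.972), which was lost without sham replicate B or C or LDIR replicate B and with normexp (0.55). None of the 64 passed in the interaction, where 3.59% of all probes did. Median differences of the 64 in BALB/c were -0.11 at 2 weeks, -0.06 at 4 weeks and 0.07 at 8 weeks, and that in SPRET/EiJ was -0.09.

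Between the strains over both treatments, 7 of 64 passed the study's threshold, 3 higher and 4 lower in BALB/c, against 16.6% of all probes, with a median difference of -0.14. The guanine nucleotide exchange factor Sos1, which loads RAS, stood 3.51 higher in BALB/c (SE 0.25, limma adjusted p = 6.12e-07), the transcription factor Stat3 2.59 higher (SE 0.17, 3.42e-07) and the ERK-pathway inhibitor Spred2 2.73 higher (SE 0.32, 3.71e-05). Spry2, a Sprouty inhibitor of receptor signalling, differed by -2.96 (SE 0.43, 0.000204), and Spred1, the adaptor Grb2 and the RAS GTPase-activating gene Rasa1 differed by -0.80, -0.77 and -0.78. For Sos1, Stat3 and Spred2, which were lower in SPRET/EiJ, a lower transcript level and weaker binding to the probe cannot be told apart. For the 4 that were higher in SPRET/EiJ, a difference in sequence under the probe was not tested. With slide as a block in 24 arrays, Spred2 (2.15), Spred1 (-1.32), Rasa1 (-0.91) and Grb2 (-0.15) no longer had an adjusted p under 0.05. With normexp the Sos1 difference was 0.58. Among sham mice Sos1 and Stat3 passed (2 of 64, 8.89% of all probes), and among LDIR mice Sos1, Stat3, Spred2 and Spry2 did (4 of 64, 5.67%). Among LDIR mice Sos1 missed an adjusted p under 0.05 with normexp (0.56, adjusted p = 0.154), as did Spred2 with the slide block in 24 arrays (1.84). The Sos1 difference among sham mice was 0.599 with normexp.

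From 2 to 8 weeks in BALB/c, 13 of 64 passed the LDIR threshold, 5 higher and 8 lower, against 21.2% of all probes, and the median difference was -0.02. Of the 5 other ligands, Areg fell from 3.01 to 5.07 at 2 weeks to -0.34 to 2.76 at 8 weeks, without overlap (-2.89, SE 0.50, limma adjusted p = 0.00347). Nrg4 fell by 1.23 on the log2 scale (adjusted p = 0.0125), Epgn differed by -0.79 (0.0556) and Nrg2 rose by 0.63 (0.00549). Among 18 feedback inhibitors, Errfi1, whose product binds and inhibits Egfr, rose from 3.16 to 4.07 at 2 weeks to 4.88 to 6.52 at 8 weeks (2.03, SE 0.28, adjusted p = 0.00107). The ERK phosphatase gene Dusp5 was above background on 0 of 6 arrays at 2 weeks and 5 of 6 at 8 weeks. Its levels were -7.19 to -5.42 at 2 weeks and -4.68 to -2.71 at 8 weeks (adjusted p = 0.00263), which gives no fold. Dusp4 fell by 1.09 on the log2 scale (0.0039). In the phosphoinositide 3-kinase and AKT list of 11, Akt2, Pdpk1 and Pik3cb fell by 0.89, 0.67 and 0.65 (adjusted p = 0.0124, 0.0052 and 0.027). Ptpn11 fell by 0.62 (0.0184), and the adaptor Grb2 and the protease gene Rhbdl2 differed by 0.59 each (0.0804 and 0.0986). Some of the 13 were lost without 1 array. LDIR replicate B of 8 weeks did so for Grb2 (0.42), Nrg2 (0.58), Pik3cb (-0.55) and Ptpn11 (-0.55), and sham replicate A of 8 weeks for Grb2 (0.49), Pik3cb (-0.54), Ptpn11 (-0.54) and Rhbdl2 (0.45). LDIR replicate B of 2 weeks did so for Grb2 (0.58), Ptpn11 (-0.57) and Rhbdl2 (0.54), LDIR replicates A and C of 2 weeks for Grb2 (0.58 each), and sham replicates B and C of 2 weeks and C of 8 weeks for Rhbdl2 (0.46, 0.58 and 0.57). In the fit of 24 arrays with slide as a block, Nrg2, Pik3cb and Rhbdl2 changed sign (-0.24, 0.045 and -0.75), and Akt2, Dusp4, Epgn, Errfi1, Grb2, Nrg4, Pdpk1 and Ptpn11 no longer passed, Nrg4 at -0.13 and Errfi1 at 1.46. With normexp, Dusp5 (0.31), Epgn (-0.49), Grb2 (0.58), Nrg2 (0.23) and Rhbdl2 (0.25) no longer passed, with quantile normalization Ptpn11 did not (-0.475), and with all 24 arrays in one fit Nrg2 did not.

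Within groups, Erbb2, Erbb4 and Btc varied with the amount of luminal marker, though not with that list alone. Over the 18 BALB/c arrays, each expressed as its deviation from its group mean, Erbb2 followed the summed luminal markers with r = 0.81 (rho = 0.77, and r = 0.77 without the 2 arrays farthest in markers). Erbb4 probe 1 did so with r = 0.78 (rho = 0.74, 0.82) and Btc with r = 0.73 (rho = 0.70, 0.70). Egfr probe 1 and Erbb3 did so less, with r = 0.54 (rho = 0.50, 0.41) and r = 0.39 (rho = 0.29, 0.27). Erbb2 also ran with the basal markers, r = 0.78 (rho = 0.725, 0.63), and the epidermis markers, r = 0.69 (rho = 0.71, 0.81). Erbb4 probe 1 ran with the basal markers at r = 0.615 (rho = 0.50, 0.455) and the epidermis markers at r = 0.65 (rho = 0.67, 0.82). Egfr probe 1 ran against the salivary gland markers, r = -0.92 (rho = -0.86, -0.81), and with the basal markers at r = 0.83 (rho = 0.71), which fell to 0.55 without the 2 farthest arrays. It ran against the lymphocyte markers as well, r = -0.87 (rho = -0.65, -0.65), and with the fibroblast markers, r = 0.80 (rho = 0.71, 0.69). Erbb2 and Btc ran against the lymphocyte markers at r = -0.72 (rho = -0.68, -0.47) and -0.77 (rho = -0.62, -0.53). These are descriptions chosen from 120 pairs of a member and a marker list, over arrays that share groups, slides and the scaling by 75th percentile.

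**Figure D5:**
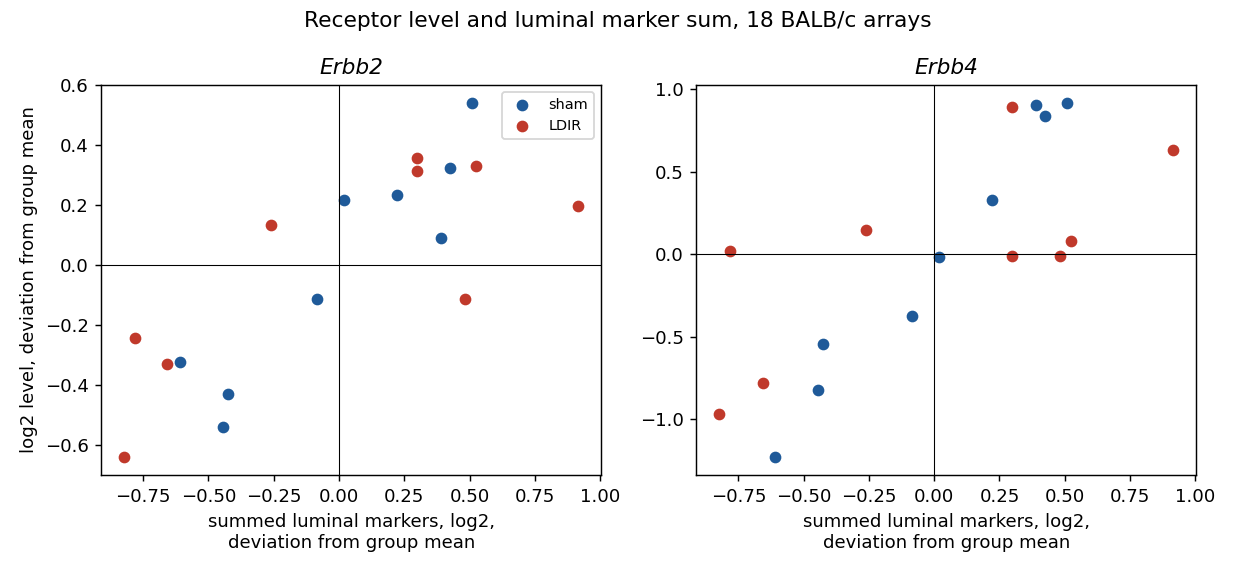
Deviation from the group mean of the log2 level of Erbb2 and Erbb4 probe 1 (vertical axes) against that of the summed luminal markers (horizontal axis), with 1 point for each of 18 BALB/c arrays, blue for sham and red for LDIR. Points run from lower left to upper right in both panels (r = 0.81 and 0.78).

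Among the 45 pairs of members, by deviation from the group mean, Erbb2 and Erbb4 were most alike, with r = 0.83 (rho = 0.74, 0.77 without the 2 farthest), followed by Btc and Egfr with r = 0.80 (rho = 0.77, 0.62) and Btc and Erbb4 with r = 0.77. The 3 Egfr probes agreed at r = 0.74 to 0.84 with each other over the same arrays. The likeness of other genes was taken from levels across groups, not deviations, and gives the highest of many correlations without a test. Of 14770 other protein-coding gene symbols above background on all 18 BALB/c arrays, those whose levels were most like Erbb2 were Wwc1 (r = 0.94), Cobl (0.93) and Grhl2 (0.92), the last a transcription factor of epithelia. For Egfr they were the matrix protease gene Mmp3 (0.90), Surf4 (0.90) and Shc2 (0.90). For Erbb4, over 14771 symbols, they were Naaladl2 (0.92), Arhgap12 (0.88) and Arhgap42 (0.88), and for Erbb3 they were Pak6 (0.80), Cpeb2 (0.77) and AI414108 (0.77).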

How the data were processed

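Mammary gland RNA labelled with Cy3 was hybridised to Agilent SurePrint G3 8x60K arrays. The deposited intensity values came, per the file headers, from Agilent Feature Extraction 10.10.1.1 (build mm9) and were background-subtracted within each array. The authors also deposited log2 values normalized to the 75th percentile in GeneSpring, centred to a median of 0 per probe, which served as an alternative. They lay within 0.01 of the values used here, once centred, for 99.812% of entries.

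Of 59305 noncontrol spots per array, 3777 outlier spots over all arrays were left out and none was saturated. Intensities were put on the log2 scale, spots of a probe averaged, and each array's 75th percentile subtracted. Groups were taken from the labels and compared on all 55681 probes with limma 3.58.1 (R 4.3.3) and Benjamini-Hochberg adjustment, 3 mice per group limiting the precision. Thresholds were those of the study's methods: over 1.5-fold with an unadjusted p under 0.05 for LDIR, or under 0.001 for strains. The fit was tested on simulated data. A gene was given by its brightest probe, then its others, and pathway genes were named where they passed. The members and lists were chosen with earlier results of these data known, and the strain comparison over both treatments and that of 8 against 2 weeks after seeing the data.

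Replicate letters in the titles gave a check for pairing. On probes above background, deviations of mice with 1 letter correlated at 0.101 to 0.442 at 2 weeks in BALB/c. The letters were taken as pairs there in the replicate block only, and the main fit was unpaired. Over all probes they correlated at -0.031 to 0.14 there, and 1 of 3 letters matched its own best. In the other comparisons some letters fell below 0.1, and at 8 weeks in BALB/c they ran from -0.567 to 0.544 on probes above background. The 2-week values lie within that spread, so they do not settle whether letters are pairs. The labels do not say that letters mark shared cages or days. Alternatives were normexp with an offset of 50, quantile normalization, the authors' values, the methods' t-test, detected probes only, no removal of outlier spots, replicate and slide blocks, all 24 arrays in one fit, and each array left out. Figures were drawn with matplotlib 3.10.9.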

Additional observations from a re-analysis of the deposited data

How the results depend on the processing

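Of 2942 alternative values for single genes, 2625 kept their direction and side of the threshold, 121 lost and 31 gained a call, 161 below the threshold turned sign, and 4 that had passed reversed, all in the comparison of 8 with 2 weeks: Tgfa with normexp (-0.05), and Nrg2 (-0.24), Pik3cb (0.045) and Rhbdl2 (-0.75) in the fit of 24 arrays with slide as a block. For these single genes the threshold was an adjusted p under 0.05 in the strain comparisons and that of the methods in the others. Counts of the 13 member probes moved as follows. The share of all probes under each alternative is not set beside these counts. A move of the members can therefore not be told apart here from a move of all probes. Among sham mice, the strain count at the study's threshold went from 0 to 2 with normexp, to 1 with detected probes only and to 1 with all 24 arrays, and that by adjusted p from 4 to 1 with the methods' t-test, 2 with all 24 arrays and 0 with slide as a block there (0 to 3 with 1 array left out). Among LDIR mice, the first went from 0 to 1 with normexp, detected probes or all 24 arrays, and the second from 1 to 0 with the t-test, the replicate block or the slide block in 24 arrays (0 to 1 with 1 array left out). Over both treatments, the first went from 1 to 2 with normexp, the replicate block or slide as a random block, and to 0 with the slide block in 24 arrays (1 to 3), and the second from 4 to 2 with normexp and 0 with the slide block (3 to 7). After LDIR, the count went from 0 to 1 with the replicate block at 2 weeks, with all 24 arrays at 4 weeks, and with detected probes or the slide block in 24 arrays at 8 weeks, and leaving out 1 array gave 0 to 1 at each time, in SPRET/EiJ and in the interaction. The probe gained with the slide block at 8 weeks was Erbb4 probe 2 (1.19), which was above background on no array. Over the 3 times the count went from 1 to 0 with normexp, quantile normalization, detected probes, slide as a block, and all 24 arrays without or with slide (0 to 2). For 8 against 2 weeks, it went from 3 to 1 with normexp or the slide block in 24 arrays, and by adjusted p to 0 with the latter. The cause of these moves was not tested. Pairing by letter was unclear at 2 weeks and not steady in the other comparisons, and with the replicate block Erbb3 among sham mice had an adjusted p of 0.0233. The t-test was not run for the interaction, the pooled fit or the added comparisons, and a slide block could not be fitted for LDIR at 2 weeks, for LDIR in SPRET/EiJ or for strain after LDIR. Signal over background limits Ereg, Tgfa and Erbb4 probe 2.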
